A study of Mus musculus with 12 samples.

Results

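The regions described here are promoter sites in mouse liver where LSD1 was detected in wild type mice over DNA that carried no H3K4me2 peak in liver of the control group. They were chosen by measured values, namely the peak intervals of the LSD1 list and of the control H3K4me2 list: an LSD1 peak was kept when its centre lay within 1 kb of the transcription start site (TSS) of a protein-coding transcript and when it shared not 1 bp with a listed control H3K4me2 peak. Of 14584 LSD1 peaks, 4970 were promoter peaks by this definition, and 389 of those had no control H3K4me2 peak. This is 2.67% of all LSD1 peaks and 7.83% of LSD1 promoter peaks (95% Wilson interval 7.11 to 8.61%). The other 4581 overlapped control H3K4me2. The absence of control H3K4me2 at the 389 sites is therefore the selection itself and not a result. All percentages with an interval treat peaks as independent, so the intervals cover counting error only.

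LSD1 was mapped by ChIP-seq in liver of wild type C57BL/6 mice, and H3K4me2 in liver of C57BL/6 mice of the GFP control and LSD1-LKO groups, with 2 ChIP libraries and 2 control libraries per group (12 libraries in all). LSD1-LKO is an LSD1 fl/fl line in which Cre was delivered to adult mice by AAV8 under the Tbg promoter, which is active in hepatocytes. Other liver cells therefore kept LSD1, and whole liver was used for chromatin. Controls were LSD1 fl/fl mice that received AAV8-TBG-GFP. LSD1 and control H3K4me2 thus come from mice that differ in genotype and treatment, and the part of this in their overlap was not tested. The labels do not say whether the 2 libraries of a group came from different animals, and age, sex and diet of the ChIP mice were not given in the labels. For its knockout and control mice the paper's methods give an age at injection, a high-fat diet afterwards and males in most experiments. They do not say which of this holds for the ChIP mice. Each of the 3 deposited lists pairs a peak of a first-listed library with an overlapping peak of a second-listed library and gives each library's fold enrichment over its control library, so a peak found in 1 library only is not in the list. Positions are those of the first-listed peak unless stated. Read depth is unknown from these lists. The control H3K4me2 list had a promoter peak at 6 of 8 hepatocyte markers and the LSD1-LKO list at 8 of 8, against 0 of 5 Kupffer cell and 0 of 5 lymphocyte markers in both lists. Stellate cell markers had one at 1 (control) and 2 (LSD1-LKO) of 5, endothelial markers at 0 and 1 of 5, and cholangiocyte markers at 2 of 4 in both lists. The 2 lists differed in length, with 43891 control and 50675 LSD1-LKO entries, and libraries and genotype cannot be told apart at a single site.

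LSD1 (KDM1A) is a flavin-dependent demethylase that removes methyl groups from mono- and dimethylated lysine 4 of histone H3, usually within complexes built on CoREST. H3K4me2 marks active and poised promoters and enhancers. At an active promoter it sits on the nucleosomes on both sides of the TSS, while the TSS itself is often depleted of nucleosomes, so a peak list can leave a gap there.

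The sequences below show what kind of DNA carries LSD1 without control H3K4me2. They are 300 bp of reference (RefSeq GRCm38.p6, mm10) centred on the LSD1 peak, written on the strand of the nearest gene, and capitals mark matches to any of 14 motifs searched on either strand. The first pair has control H3K4me2 peaks within 2 kb on both sides, the second pair on 1 side, and the last 4 on neither side. Within each class the pair has the strongest LSD1 peaks, except that Cgnl1 and Ppp1r3g are the members nearest to the median CpG content of neither-side sites with and without an LSD1-LKO H3K4me2 peak and were picked after the values were seen.
Tomt chr7:101906090-101906389, minus strand: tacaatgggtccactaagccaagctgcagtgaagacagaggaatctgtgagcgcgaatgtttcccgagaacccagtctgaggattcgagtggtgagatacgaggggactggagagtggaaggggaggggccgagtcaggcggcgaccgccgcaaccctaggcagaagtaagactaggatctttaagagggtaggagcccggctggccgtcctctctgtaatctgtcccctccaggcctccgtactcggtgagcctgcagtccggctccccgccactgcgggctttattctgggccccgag
Trim41 chr11:48817100-48817399, minus strand: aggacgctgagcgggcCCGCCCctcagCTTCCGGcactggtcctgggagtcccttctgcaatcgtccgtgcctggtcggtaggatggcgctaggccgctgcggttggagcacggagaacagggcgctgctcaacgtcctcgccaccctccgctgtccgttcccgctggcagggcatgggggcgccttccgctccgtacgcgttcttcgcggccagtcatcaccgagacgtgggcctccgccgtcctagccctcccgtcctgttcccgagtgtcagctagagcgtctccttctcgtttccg
Chtop chr3:90509173-90509472, minus strand: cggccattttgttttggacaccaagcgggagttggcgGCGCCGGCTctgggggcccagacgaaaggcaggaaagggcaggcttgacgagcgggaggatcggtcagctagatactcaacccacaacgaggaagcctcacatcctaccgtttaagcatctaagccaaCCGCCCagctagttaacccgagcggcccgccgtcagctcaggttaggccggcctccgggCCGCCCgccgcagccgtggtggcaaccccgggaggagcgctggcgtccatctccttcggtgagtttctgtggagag
Edc3 chr9:57707823-57708122, plus strand: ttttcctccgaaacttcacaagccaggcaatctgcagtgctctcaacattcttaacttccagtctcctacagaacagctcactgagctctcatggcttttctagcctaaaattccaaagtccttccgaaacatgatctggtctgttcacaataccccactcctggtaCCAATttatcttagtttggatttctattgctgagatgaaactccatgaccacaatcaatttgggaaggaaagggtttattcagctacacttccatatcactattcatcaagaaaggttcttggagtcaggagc
Tceanc chrX:166510059-166510358, minus strand: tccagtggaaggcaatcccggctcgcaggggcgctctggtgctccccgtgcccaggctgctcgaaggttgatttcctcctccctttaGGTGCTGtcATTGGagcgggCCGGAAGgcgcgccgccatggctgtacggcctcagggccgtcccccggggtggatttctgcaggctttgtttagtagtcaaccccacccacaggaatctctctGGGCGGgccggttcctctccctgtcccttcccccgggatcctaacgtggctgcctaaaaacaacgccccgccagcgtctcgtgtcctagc
Cend1 chr7:141429223-141429522, minus strand: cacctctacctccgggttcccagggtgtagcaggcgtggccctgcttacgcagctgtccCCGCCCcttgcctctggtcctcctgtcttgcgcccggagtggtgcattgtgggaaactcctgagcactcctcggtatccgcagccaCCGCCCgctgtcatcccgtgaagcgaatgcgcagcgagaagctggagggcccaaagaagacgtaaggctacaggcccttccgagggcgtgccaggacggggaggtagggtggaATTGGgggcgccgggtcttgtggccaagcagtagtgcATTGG
Cgnl1 chr9:71771097-71771396, minus strand: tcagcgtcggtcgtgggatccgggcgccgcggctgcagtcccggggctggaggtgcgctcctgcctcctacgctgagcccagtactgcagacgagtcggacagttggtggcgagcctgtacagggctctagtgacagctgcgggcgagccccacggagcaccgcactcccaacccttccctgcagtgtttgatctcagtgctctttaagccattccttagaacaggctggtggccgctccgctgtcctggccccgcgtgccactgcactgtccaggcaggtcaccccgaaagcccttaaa
Ppp1r3g chr13:35959574-35959873, plus strand: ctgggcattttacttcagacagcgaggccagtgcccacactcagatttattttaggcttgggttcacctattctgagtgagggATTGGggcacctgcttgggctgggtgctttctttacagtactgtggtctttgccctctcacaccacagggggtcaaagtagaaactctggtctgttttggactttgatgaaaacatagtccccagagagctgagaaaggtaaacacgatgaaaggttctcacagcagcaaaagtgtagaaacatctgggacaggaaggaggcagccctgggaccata
The capitals are the SP/KLF motif GGGCGG, the ETS/GABP motif CCGGAAG, the NFY motif CCAAT, a CTCF core AGNNGGCGC and the REST part CAGCACC, in either orientation. The Tomt and Cgnl1 stretches held none of the 14. Trim41 had 33 CG dinucleotides in its 300 bp, whereas Edc3 and Ppp1r3g had 2 each.

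LSD1 peaks at these sites were lower and narrower than other LSD1 promoter peaks. Their median fold enrichment was 2.85 in the first-listed and 3.20 in the second-listed LSD1 library, against 3.34 and 3.56 for the 4581 peaks with control H3K4me2. Their median width was 389 bp against 538 bp. The median distance of the peak centre to the nearest TSS was 206 bp against 136 bp, and 22.9% lay beyond 500 bp against 9.52%. Only 44 of 389 (11.3%) reached a p-value of 1e-05 in both libraries, against 22.4% of those with control H3K4me2. At 59 of 389 (15.2%) the listed p-value was above 0.01 in at least 1 LSD1 library, against 8.67%. These are descriptions without a test, and peak width is not independent of the selection by overlap. The sites belonged to 378 nearest genes, of which 11 held 2 of them (Alb, Cobll1, Edem2, Ibtk, Nfat5, Phtf2, Slc13a2, Slc31a1, Thap1, Tlr11 and Tns2), and 55 of the 378 also had an LSD1 promoter peak with control H3K4me2. The centre lay in an intron in 132, in a UTR in 93, in a coding exon in 42 and outside protein-coding transcripts in 122.

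At the edge of the rule the distinction was a few base pairs. The LSD1 peak of Tmem30a ended 2 bp from a control H3K4me2 peak and that of Mipep 3 bp from one, while the peaks of Setmar and 1810037I17Rik overlapped one by 1 and 4 bp and were left out. On the TSS side, Gm19668 and Rcan2 were inside at 994 and 987 bp, and Aoc1 and Vmn2r1 outside at 1001 and 1004 bp.

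The sites fell into 3 classes by the control H3K4me2 peaks around them. Control H3K4me2 lay within 2 kb on both sides of 65 sites (16.7%), on 1 side of 161 (41.4%) and on neither side of 163 (41.9%). The both-sided share was 6.99% with second-listed H3K4me2 intervals, 4.80% with both libraries' intervals joined and 4.48% with H3K4me2 peaks at p of 1e-05 or less. It was 55.3% when 50% of the narrower peak had to be shared, but there control peaks that partly overlapped LSD1 counted as flanks. The median distance to the nearest control peak was 77.0 bp, 262 bp and 16401 bp in these classes. Of the 1-sided sites, the control peak lay downstream in the direction of the gene at 109 and upstream at 52. The median offset of the LSD1 peak centre from the TSS was -132 bp (upstream) when the control peak was downstream, and 175 bp (downstream) when the control peak was upstream. By these medians the control peak lay on the side of the TSS. TSS of both strands were within 1 kb at 11 of 65 both-sided sites, at 5 of 161 1-sided sites and at 12 of 163 neither-side sites.

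**Figure D1:**
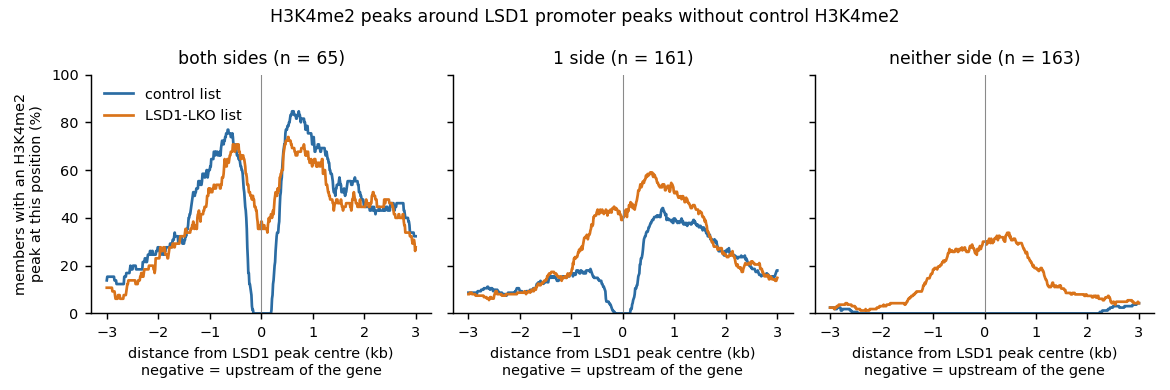
Share of sites (%) with a listed H3K4me2 peak at each position from 3 kb upstream to 3 kb downstream of the LSD1 peak centre, in the direction of the nearest gene, for the control list (blue) and the LSD1-LKO list (orange) in the 3 classes. The control lines are 0 at the centre by selection. In the both-sided class they peaked at 76.9% upstream and 84.6% downstream, and the LSD1-LKO lines stood at 38.5%, 39.8% and 30.1% over the centre.

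The gaps left by control H3K4me2 around a both-sided LSD1 peak are limited by the 2 kb allowed on each side. They ranged from 358 bp at Slc6a6, a taurine transporter, to 3525 bp at Cebpb, a liver transcription factor, with a median of 766 bp (95% interval of the median 645 to 892) and quartiles of 613 and 1214 bp. The gap held the nearest TSS at 53 of 65 sites (81.5%), and the LSD1 peak filled a median of 47.5% of it. That TSS share is largely set by the rule, since the gap holds an LSD1 peak centred within 1 kb of a TSS. The LSD1 peak itself covered the nearest TSS at 35 of the 65. The flanking control peaks stood at median ranks of the 62.3rd and 68.2nd percentile of the control list, with median folds of 3.75 and 5.40 in the 2 libraries on the lower-coordinate side and 4.07 and 5.46 on the other. With flanks allowed to 5 kb the median was 1242 bp over 99 sites. The gap also depends on which H3K4me2 library gives the interval. With the second-listed control intervals the median gap was 1158 bp over 20 sites, and with both libraries' intervals joined it was 1429 bp over 12 sites.

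Tomt, an O-methyltransferase gene named for its transmembrane form, had the strongest both-sided LSD1 peak (chr7:101905834-101906647, mm10), with folds of 8.92 and 9.07. Control H3K4me2 began 61 bp downstream and 1571 bp upstream, leaving a gap of 2446 bp in the first-listed control library. The LSD1-LKO list had a peak here with folds of 4.07 and 6.71 that covered 85.7% of the LSD1 peak. At Trim41, a RING-type ubiquitin ligase gene (chr11:48817021-48817479), LSD1 had folds of 3.26 and 6.95 inside a gap of 684 bp. An LSD1-LKO peak with folds of 2.65 and 7.93 lay over 60.3% of it. The next 4 by LSD1 strength were Chd1l, a chromatin remodeller, Mmadhc, which acts in cobalamin metabolism, and the splicing genes Prpf39 and Dhx38. Their gaps were 536, 570, 766 and 791 bp. Chd1l and Prpf39 had an LSD1-LKO peak, and Mmadhc and Dhx38 had none. At all 6 the second-listed control interval overlapped the LSD1 peak, so that these gaps were seen in 1 of the 2 control libraries.

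**Figure D2:**
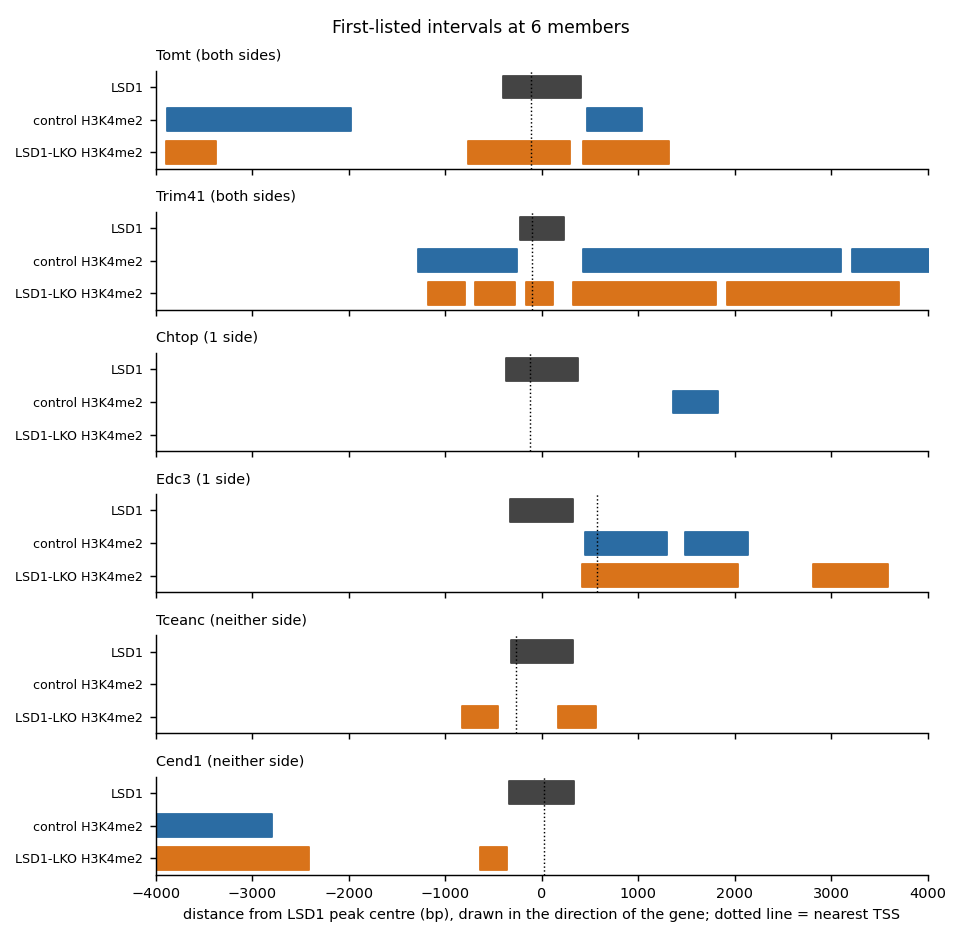
First-listed intervals of LSD1 (grey), control H3K4me2 (blue) and LSD1-LKO H3K4me2 (orange) at 6 sites, by distance in bp from the LSD1 peak centre in the direction of the gene, with the nearest TSS dotted. Tomt and Trim41 have control peaks on both sides and an LSD1-LKO peak over LSD1, Chtop and Edc3 have a control peak downstream only, and Tceanc and Cend1 have none within 2 kb.

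At the 1-sided sites the strongest LSD1 peak was that of Chtop, which encodes a chromatin and mRNA export factor (chr3:90508952-90509695), with folds of 6.89 and 6.47. Its single neighbouring control peak lay 982 bp downstream (at p of 1e-05 or less the nearest was 3792 bp away), and the LSD1-LKO list had no peak over LSD1. Edc3, an mRNA decapping factor gene (chr9:57707647-57708300), had folds of 5.57 and 6.18 in a peak upstream of its TSS (offset of the centre -566.5 bp). Control H3K4me2 started 121 bp downstream of it and LSD1-LKO H3K4me2 did not reach it. Car5a, a mitochondrial carbonic anhydrase of hepatocytes, had LSD1 folds of 5.75 and 5.93 and a control peak 149 bp downstream, with no LSD1-LKO peak. Lims2, Abhd12 and Pcf11 completed the highest 6, and each had an LSD1-LKO peak, over 98.2% of the LSD1 peak at Lims2, all of it at Abhd12 and 99.5% at Pcf11.

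At the neither-side sites Tceanc, a transcription elongation factor-related gene on the X chromosome (chrX:166509891-166510528), had the strongest LSD1, with folds of 6.63 and 10.7. The nearest control H3K4me2 was 31252 bp away, and an LSD1-LKO peak with folds of 3.53 and 3.85 covered 24.3% of the LSD1 peak. Cend1, a neuronal differentiation gene (chr7:141429036-141429710), had folds of 6.69 and 9.43, with control H3K4me2 2456 bp upstream and no LSD1-LKO peak. The nearest second-listed control interval was 1059 bp from it, so its class holds for the first-listed intervals only. Fah, the last enzyme of tyrosine breakdown (chr7:84605587-84606607), had LSD1 folds of 7.35 and 5.34. Control H3K4me2 lay 3160 bp downstream, and at p of 1e-05 or less the nearest was 78499 bp away. An LSD1-LKO peak with folds of 2.80 and 7.52 covered 77.5% of the LSD1 peak. Cpsf7 and Man1a2 had LSD1-LKO peaks, over all of the LSD1 peak at Cpsf7 and 82.6% of it at Man1a2, and Tmprss9 had none. The LSD1 peaks of these 6 ranked between the 97.4th and 99.7th percentile of the LSD1 list, and those of the highest 6 both-sided sites between the 90.9th and 99.8th.

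**Figure D3:**
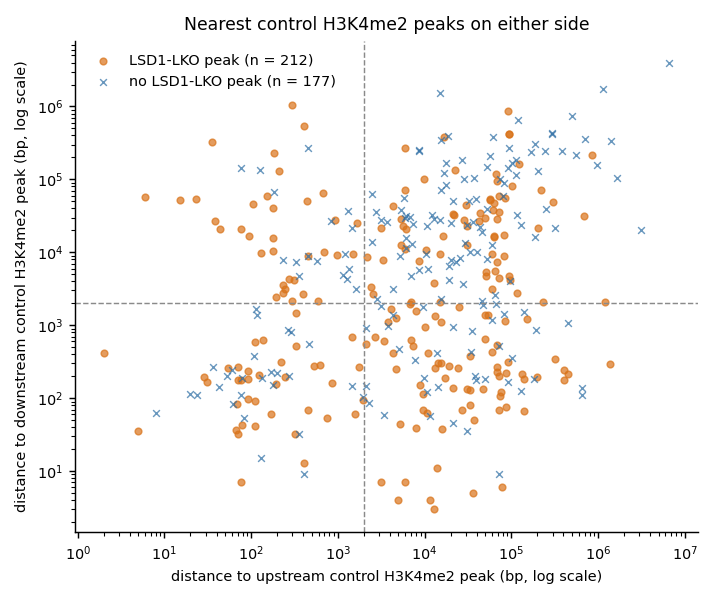
Distance in bp (log scales) from each LSD1 peak to the nearest control H3K4me2 peak upstream and downstream, for sites with (orange circles, n = 212) and without (blue crosses, n = 177) an LSD1-LKO peak. Dashed lines mark 2 kb and divide the both-sided sites (lower left, 65), the 1-sided sites (upper left and lower right, 52 and 109) and the neither-side sites (upper right, 163). Sites with and without an LSD1-LKO peak occur in all 4 quadrants.

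The question for the LSD1-LKO list was whether H3K4me2 was listed over these sites once hepatocytes lacked LSD1. An LSD1-LKO peak overlapped 212 of 389 (54.5%, interval 49.5 to 59.4%). The background was higher, since 90.7% of all LSD1 promoter peaks and 93.8% of those with control H3K4me2 overlapped an LSD1-LKO peak. The same question asked in the other direction gave a higher share: of the 460 LSD1 promoter peaks without an LSD1-LKO peak, 283 (61.5%) had a control peak. The 54.5% is thus below this reverse share, and no net gain of H3K4me2 at LSD1 promoter peaks can be read from it. Under other settings the 54.5% ran from 45.5% to 68.2%, and the reverse share was not recomputed there. By class, an LSD1-LKO peak was present at 38 of 65 both-sided sites (58.5%), at 106 of 161 1-sided sites (65.8%) and at 68 of 163 neither-side sites (41.7%). In the reverse direction the shares were 76.0% of 150, 71.2% of 177 and 32.3% of 133. The neither-side class was the only 1 of the 3 in which the share was above its reverse, 41.7% (interval 34.4 to 49.4%) against 32.3%. The reverse share rests on 43 of 133 and has counting error of its own, for which no interval was made. The LSD1-LKO list is also the longer, with 50675 entries against 43891. Neither this difference nor the part of list length in it was tested.

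Where both-sided sites had an LSD1-LKO peak, it filled the control gap in part. It spanned the whole gap at 5 of 38 sites, joined 1 flank at 28 and lay inside the gap at 5. The 5 that spanned it, named after their values were seen, were Aldh8a1, Gltpd2, Gm28778, Higd1a and Nsun4, with control gaps of 1106, 478, 628, 637 and 410 bp. All 5 were overlapped by the second-listed control interval. Of the 27 both-sided sites without an LSD1-LKO peak, 22 were again flanked on both sides in LSD1-LKO liver, with a median gap of 759 bp against 797 bp in control for the same sites. This holds for the first-listed intervals: the second-listed control interval lay over the LSD1 peak at 18 of these 22, and at 4 of them neither second-listed interval did.

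LSD1-LKO peaks at neither-side sites were not faint. The 68 had median folds of 4.05 and 5.96 and a median rank at the 79.4th percentile of the LSD1-LKO list. The reverse 43 had median folds of 4.11 and 5.56 in the control list, at the 74.9th percentile. The highest, named after their values were seen, was Tcf7, a Wnt-responsive transcription factor gene, with LSD1-LKO folds of 6.98 and 9.74 and the nearest control peak 47976 bp away. Thap12 had LSD1-LKO folds of 8.13 and 6.52, and Phtf2 5.54 and 9.31. At the level of genes, 158 sites had no control peak at any promoter of the nearest gene, and 91 of these (57.6%) had an LSD1-LKO promoter peak at that gene. Over all 8988 protein-coding genes without a control promoter peak this share was 7.74%. That background counts genes and not sites and includes genes without LSD1, so the shares are not alike. The reverse count was not made at the level of genes, and no net gain of H3K4me2 can be read from the 57.6%.

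Some sites lacked control H3K4me2 in the first-listed control library only. A list entry pairs the libraries, and its second-listed interval is usually longer, with a median of 1161 bp against 648 bp. This second-listed control interval overlapped 139 of 389 sites (35.7%), against 94.2% of all LSD1 promoter peaks. It did so at 56 of 65 both-sided sites (86.2%) and 82 of 161 1-sided sites (50.9%), but at 1 of 163 neither-side sites (0.613%), Tapt1. This order is largely set by the classes themselves, since they were defined by distance to first-listed control peaks and each second-listed interval covers at least 50% of such a peak. Among the sites named in the text, those it overlapped also included Car5a, Crat, Gstz1, Higd1a, Pdhx, Rpl22, Rpl27a, Rpl36a and Slc6a6. None of the 4 interval sets, 2 control and 2 LSD1-LKO, touched 117 sites (30.1%), of which 89 were neither-side, 24 were 1-sided and 4 were both-sided. When an LSD1 peak had to share at least 50% of the narrower peak to count as overlapped, 1058 promoter peaks had no control H3K4me2.

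**Figure D4:**
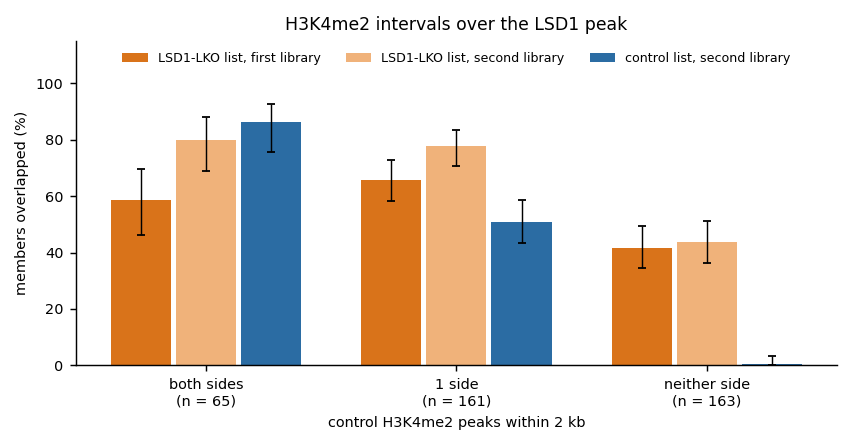
Share of sites (%, bars, with 95% Wilson intervals) overlapped by the first-listed and second-listed LSD1-LKO intervals and by the second-listed control interval, in the 3 classes. The second-listed control interval covers 86.2% of both-sided, 50.9% of 1-sided and 0.613% of neither-side sites; the first-listed control interval covers none by selection.

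The DNA under these LSD1 peaks was poorer in CpG than at other LSD1 promoter peaks. In 500 bp around the peak centre the median ratio of observed to expected CpG was 0.458, against 0.822 at peaks with control H3K4me2 and 0.557 at all protein-coding TSS. GC content was 55.8%, 65.4% and 57.2%. CpG island-like windows, with GC above 50% and a ratio above 0.6, made up 40.4% of these sites, 80.5% of peaks with control H3K4me2 and 46.0% of all TSS. The rule did not use sequence. Windows of the TSS set were centred on the TSS and the others on the LSD1 peak. The LSD1 peaks at these sites lay farther from a TSS than those with control H3K4me2 (median 206 against 136 bp). The part of this distance in the CpG difference was not tested. Both-sided sites were richest (median 0.699), and 1-sided (0.413) and neither-side sites (0.433) were poorer.

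Within the neither-side class CpG content differed with the state of the site in LSD1-LKO liver. The 68 sites with an LSD1-LKO peak had a median ratio of 0.716 (quartiles 0.447 and 0.889) and 42 of them (61.8%, interval 49.9 to 72.4%) were CpG island-like. The 95 without had a median of 0.252 (quartiles 0.134 and 0.504) and 16 (16.8%, interval 10.6 to 25.6%) were island-like. Cgnl1 and Ppp1r3g, shown with their sequences, stand for these medians with ratios of 0.71 and 0.25. In the 1-sided class the medians were 0.495 and 0.321, and in the both-sided class 0.691 and 0.701. LSD1 strength moved with this split as well, with median folds of 2.94 and 3.46 at neither-side sites with an LSD1-LKO peak and 2.76 and 2.83 without, and its part in the result was not tested. Among peaks with control H3K4me2 the ratio was also higher with an LSD1-LKO peak (0.827) than without (0.721), so the direction of the split was not particular to sites lacking control H3K4me2.

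**Figure D5:**
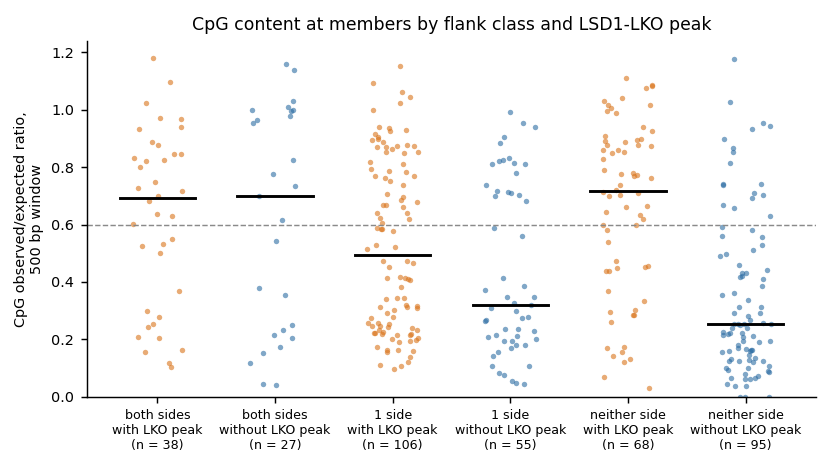
CpG observed/expected ratio in the 500 bp window around each LSD1 peak centre, 1 point per site, by class and by presence of an LSD1-LKO peak, with medians as black bars and the 0.6 limit dashed. Neither-side sites with an LSD1-LKO peak centre on 0.716 and those without on 0.252, while the both-sided medians are 0.691 and 0.701.

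Motif letters were counted in the same windows. The GC-rich SP/KLF letters GGGCGG occurred in 48.6% of windows, against 78.1% with control H3K4me2 and 51.3% of TSS windows, and in 61.8% and 29.5% of neither-side sites with and without an LSD1-LKO peak. TATAAA occurred in 15.7%, against 6.55% and 15.3%. CCAAT occurred in 50.9%, against 37.8% and 46.2%, and CCGGAAG in 11.3%, against 20.1% and 13.8%. The NRF1 letters GCGCATGCG were in 1.29%, against 3.69% and 2.40%, and the ERR letters AAGGTCA in 7.71%, against 5.72% and 6.56%. The YY1 letters AAGATGGCG were in 3.86%, against 5.17% and 2.68%, and the E-box CACGTG in 10.8%, against 11.5% and 10.1%. The CTCF core was in 12.9%, against 23.5% and 13.5%. Both strands were searched, no motif contained another, and a match is a stretch of letters and not a bound site.

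By gene, these sites lay within 1 kb of 410 (8.10%) of the 5063 genes near any LSD1 promoter peak. Gene groups are read against that share. Cytochrome P450 genes, which oxidise drugs, steroids and fatty acids, had 7 of 19. They were Cyp17a1, Cyp1a1, Cyp2c39, Cyp2d26, Cyp2d9, Cyp2j7 and Cyp3a25. Cyp1a1, the aryl hydrocarbon receptor target, had the highest LSD1 among them by the first-listed library, with folds of 5.59 and 2.97. Cyp3a25 had a gap of 665 bp between control peaks and Cyp2d26 one of 909 bp, whereas the nearest control peak to Cyp2j7 was 94953 bp away. LSD1-LKO peaks were present at Cyp17a1, Cyp2d26 and Cyp2d9 and not at the other 4. The second-listed control interval overlapped 3 of the 7, Cyp1a1, Cyp2d9 and Cyp3a25. With control peaks limited to p of 1e-05 or less, the nearest one to Cyp17a1 moved from 130 to 33289 bp and that to Cyp2c39 from 127 to 504915 bp. These families have close copies, so reads at their promoters may be shared between copies.

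Plasma protein genes had 3 of 16, namely Alb, Apob and Fgg. The albumin gene carried an LSD1 peak on either side of its TSS, at an offset of -328 bp with folds of 2.82 and 1.89 and of 393 bp with folds of 3.29 and 2.96. The nearest control H3K4me2 lay 1781 bp downstream of the first and 939 bp downstream of the second (2964 and 2122 bp with control peaks at p of 0.01 or less), and an LSD1-LKO peak covered 26.9% of the downstream peak. At Fgg, a fibrinogen chain, LSD1 lay 110 bp from control H3K4me2, with no LSD1-LKO peak. At Apob LSD1 was weak, with folds of 2.35 and 2.44, and control H3K4me2 was 20376 bp away. The LSD1-LKO list had a peak within 1 kb of a TSS at all 34 plasma protein genes, Apob included, and the control list at 33. Such a peak need not lie over LSD1. Liver transcription factors had 2 of 10, Cebpb and Foxa3. At Cebpb the LSD1 peak spanned 1376 bp in a control gap of 3525 bp, and an LSD1-LKO peak with folds of 5.17 and 7.97 covered all of it. At Foxa3 the nearest control peak was 5338 bp away, and 2 LSD1-LKO peaks overlapped LSD1.

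Genes of mitochondrial function that the study picked as lowered in its own RNA-seq of LSD1-LKO liver had 9 of 127, close to the 8.10%. These were Bckdha of branched-chain amino acid oxidation, Car5a, Crat of acyl-carnitine exchange, Crls1 of cardiolipin synthesis, Gstz1, Higd1a, Mmadhc, Pdhx of the pyruvate dehydrogenase complex, and Sdhaf2 of complex II assembly, which shares its peak with Cpsf7. An LSD1-LKO peak lay at Bckdha, Crat, Crls1, Higd1a, Pdhx and Cpsf7/Sdhaf2 and none at Car5a, Gstz1 and Mmadhc. At Bckdha it covered all of the LSD1 peak, with folds of 4.80 and 8.23, in a control gap of 2402 bp. At Crls1 it also covered all of it, with folds of 3.69 and 5.84, and the nearest control peak was 23041 bp away. Mitochondrial ribosomal protein genes had 1 of 27 (Mrps36, neither side, LSD1-LKO folds of 3.41 and 8.0), and cytosolic ribosomal protein genes 3 of 34 (Rpl22, Rpl27a and Rpl36a, gapped or 1-sided, each with an LSD1-LKO peak). Regulators of mitochondrial genes (NRF1, GABP, ERR and PGC1) had an LSD1 promoter peak at 2 of 10, and none of these lacked control H3K4me2.

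Among genes with an LSD1 promoter peak, these sites lay at 0 of 28 canonical histone genes, 0 of 16 proteasome genes and 4 of 129 Zfp zinc finger genes. The histone and proteasome lists are too short to set a count of 0 apart from the 8.10% share, and none of these counts was tested. Solute carriers had 13 of 90, of which Slc6a6, Slc22a5 (carnitine uptake) and Slc39a4 (zinc uptake) had the strongest LSD1. Slc22a5 and Slc39a4 had an LSD1-LKO peak and Slc6a6 had none. All 3 olfactory receptor genes with an LSD1 promoter peak were among these sites, all neither-side and none with an LSD1-LKO peak. Their LSD1 folds were between 2.12 and 3.0. Conjugation enzymes had 2 of 13 (Gstm6 and Gstz1), ion channel and receptor genes 2 of 6 (Cacng2 and Chrna4), clock genes 1 of 8 (Nr1d1, a haem-binding repressor of the clock, in a gap of 512 bp) and CoREST complex genes 1 of 6 (Ctbp1). The second-listed control interval overlapped both Nr1d1 and Ctbp1. The marker lists for other liver cells held 1 site, at the endothelial gene Stab1, with LSD1 folds of 2.35 and 1.78 and no H3K4me2 in either list. Hox, keratin and vomeronasal receptor genes had no LSD1 promoter peak.

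The X chromosome held 19 of these sites among its 76 LSD1 promoter peaks (25%, interval 16.6 to 35.8%). On single autosomes the share ran from 3.12% on chromosome 16 to 10.3% on chromosome 10. Of the 19, 1 was both-sided (Rpl36a), 10 were 1-sided and 8 were neither-side, and 5 had an LSD1-LKO peak (26.3%) against 55.9% of the autosomal 370. The LSD1-LKO list was also sparse there, since 43.4% of LSD1 promoter peaks on X and 8.72% on autosomes had no LSD1-LKO peak. Sex of the animals was not given in the labels, and its part in this was not tested. Without the X chromosome the share of LSD1 promoter peaks lacking control H3K4me2 was 7.56%.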

How the data were processed

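LSD1 and H3K4me2 were measured by ChIP-seq in liver, in 12 libraries. Control libraries were inputs per the labels and IgG ChIP per the methods. The authors mapped reads to mm10 with Bowtie2, called narrow peaks with MACS2 at P = 0.01 and paired peaks of 2 libraries with bedtools 2.25.0. Values listed reach P above 0.01. In each list a first-listed peak is covered by its partner over at least 50% of its length. The deposited values used were the fold enrichment (a ratio over the control library) and the −log10 p-value. Integer scores, q-values and summit offsets (18 per-library columns over 3 lists) were not used.

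Peak centres were compared with 54361 TSS of 21853 protein-coding genes (GENCODE vM21), overlap was at least 1 bp, and flanks were sought within 2 kb. Strength was the mean −log10 p of both libraries, and a rank percentile is by this mean within a list. Intervals were 95% Wilson or, for a median, from binomial order statistics. Sequence came from RefSeq GRCm38.p6, in which all 21 chromosome names matched and held every peak. CpG and 14 motifs were counted in 500 bp windows. Interval functions were tested on simulated data. Python 3.11.15, numpy 2.4.6, pandas 2.3.3, scipy 1.17.1 and matplotlib 3.10.9 were used. No test between groups was run, since sites were chosen by the lists themselves and no counts are in them. Named genes were the 6 with strongest LSD1 in each class, the 4 strongest with an LSD1-LKO peak and no flank, members of 26 gene lists (3 at most for solute carriers, Zfp genes and ion channels) and the sites at the thresholds. The members and lists were chosen with earlier results of these data known. Alternatives changed the promoter width, TSS set, library interval, p-value limit, overlap and flank limit.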

Additional observations from a re-analysis of the deposited data

How the results depend on the processing

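Of 52 values recomputed under other settings, 26 stayed within the 95% interval of the reported value and 26 moved; leaving out the X chromosome, added after seeing the data, moved none of 4. The share of LSD1 promoter peaks without control H3K4me2 (7.83%) became 6.75% with promoters of 500 bp, 10.8% with 2 kb, 6.83% with 1 TSS per gene, 6.34% with second-listed LSD1 intervals, 5.75% with second-listed H3K4me2 intervals, 5.03% with both joined and 4.12% with LSD1 at p of 1e-05 or less. It rose to 21.1% with H3K4me2 at that limit, which removes weak control peaks, and to 21.3% when 50% overlap of the narrower peak was required. The share with an LSD1-LKO peak (54.5%) became 45.5% with 2 kb promoters, 59.5% with 1 TSS per gene, 68.2% (30 of 44) with LSD1 at 1e-05, 49.0% with H3K4me2 at 1e-05 and 45.7% with 50% overlap. The share flanked on both sides (16.7%) became 11.5% with second-listed LSD1 intervals, 6.99% with second-listed H3K4me2 intervals, 4.80% with both joined, 4.48% with H3K4me2 at 1e-05, 55.3% with 50% overlap and 25.4% with flanks to 5 kb. The median gap (766 bp) became 1198, 1158, 1429, 962, 339 and 1242 bp under the same 6. With 50% overlap required, a control peak that overlapped LSD1 by less counted as a flank at its edge. The 55.3% and 339 bp therefore include sites whose flanking peaks lie partly on the LSD1 peak. Why the other values moved was not tested beyond these constructions. Of 56 named sites, the second-listed control interval overlapped 21, and a p limit, which only removes intervals, could not. The distance to the nearest control peak grew at 5 of 56 with H3K4me2 at 0.01 and at 29 at 1e-05, where 12 of 37 within 2 kb left that range, Tomt moved from 61 to 1571 bp and Slc6a6 from 8 to 4802 bp.

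Each list is 1 intersection of 2 libraries without counts, so depth, the size of a difference in H3K4me2 and the spread between animals could not be measured. The second-listed intervals stand in for leaving out 1 library. No paired analysis was possible because the lists give no per-sample value for sites without a peak and no result came from a test.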
